A study of Mus musculus with 22 samples.

Results

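The nephron segment genes are 41 genes that mark the epithelial cells of the kidney tubule and the podocytes of the glomerulus. They were chosen as a list of gene symbols and mapped to Ensembl mouse gene identifiers, and 41 of the 41 were found among the 52636 genes counted. By segment, 22 belong to the proximal tubule, 3 to the loop of Henle, 5 to the distal tubule, 9 to the collecting duct and 2 to the podocyte.

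The series sequenced RNA from the renal capsule, the thin fibrous layer around the kidney, and from macrophages sorted from it or from the kidney, in 22 mouse libraries of 6 groups. The groups were aged capsule (n = 3) and young capsule (n = 3), labelled as whole tissue, capsule macrophages (n = 4) and kidney macrophages (n = 4), and aged RCAM (n = 4) and young RCAM (n = 4). RCAM is not spelled out in the labels, which call those libraries whole tissue, while the series' own text speaks of sorted macrophages. All groups had the treatment None, and no strain, sex, genotype or age in months was given. No age was given for the capsule and kidney macrophage libraries. Nothing in the labels says that the replicates of a group came from separate animals, so a p-value here weighs a difference against the scatter among the libraries, and that scatter could be technical.

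A nephron filters blood through the podocytes of the glomerulus and then reclaims and adjusts the filtrate along the tubule. The proximal tubule takes back most phosphate, glucose, amino acids and bicarbonate and makes glucose and creatine precursors. The thick ascending limb of the loop reclaims salt, the distal tubule fine-tunes salt and calcium, and the collecting duct sets water, potassium and acid excretion through its principal and intercalated cells. The capsule lies against the cortex, where proximal tubules are the most abundant structure.

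Levels are given as CPM, a gene's counts per 1000000 counts of all genes in its library. Library totals ranged over 27091618 to 43230225 counts for aged capsule and 20586795 to 22188167 for young capsule. Macrophage libraries from the capsule had totals of 39320398 to 53396998 counts, and those from the kidney 31848761 to 49864438. Totals for RCAM were 44957541 to 51788622 counts in aged and 49848308 to 54421764 in young libraries. A total of 3 counts, the most that a count of 0 allows by counting error, equals 0.0551 to 0.146 CPM. The defining macrophage marker Csf1r was high in all macrophage and RCAM libraries, at 6625 to 7780.3 CPM in capsule macrophages, against 4117 to 4724 CPM in kidney macrophages, and at 7309 to 8741 CPM in aged RCAM and 7364 to 8816 CPM in young RCAM. In tissue it was at 549.7 to 650.2 CPM in aged capsule and 236 to 449.6 CPM in young capsule. Some tissue libraries stood apart. Aged capsule library 2 held 6766 CPM of 13 summed adrenal genes, against 15.5 and 24.7 CPM in the other aged libraries, and young capsule library 2 held 210.1 CPM, against 12.3 and 19.8 CPM in the other young ones. Both libraries numbered 2 also had the highest white adipocyte sums of their age, 62984 CPM in aged capsule and 53703 CPM in young capsule.

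The summed proximal and distal tubule genes were lower in every aged than in every young capsule library. The loop and collecting duct sums overlapped between ages, the latter being mostly Kcnj15, and single genes rarely passed the test. Each tubule segment summed lower in every library of macrophages from the capsule than in any from the kidney. The 41 genes together took 0.379% to 0.894% of all counts in aged capsule and 1.23% to 3.23% in young capsule. They took 0.0279% to 0.0505% in capsule macrophages against 0.309% to 0.485% in kidney macrophages. In RCAM libraries they took 0.0369% to 0.0520% in aged and 0.0398% to 0.0572% in young.

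**Figure D1:**
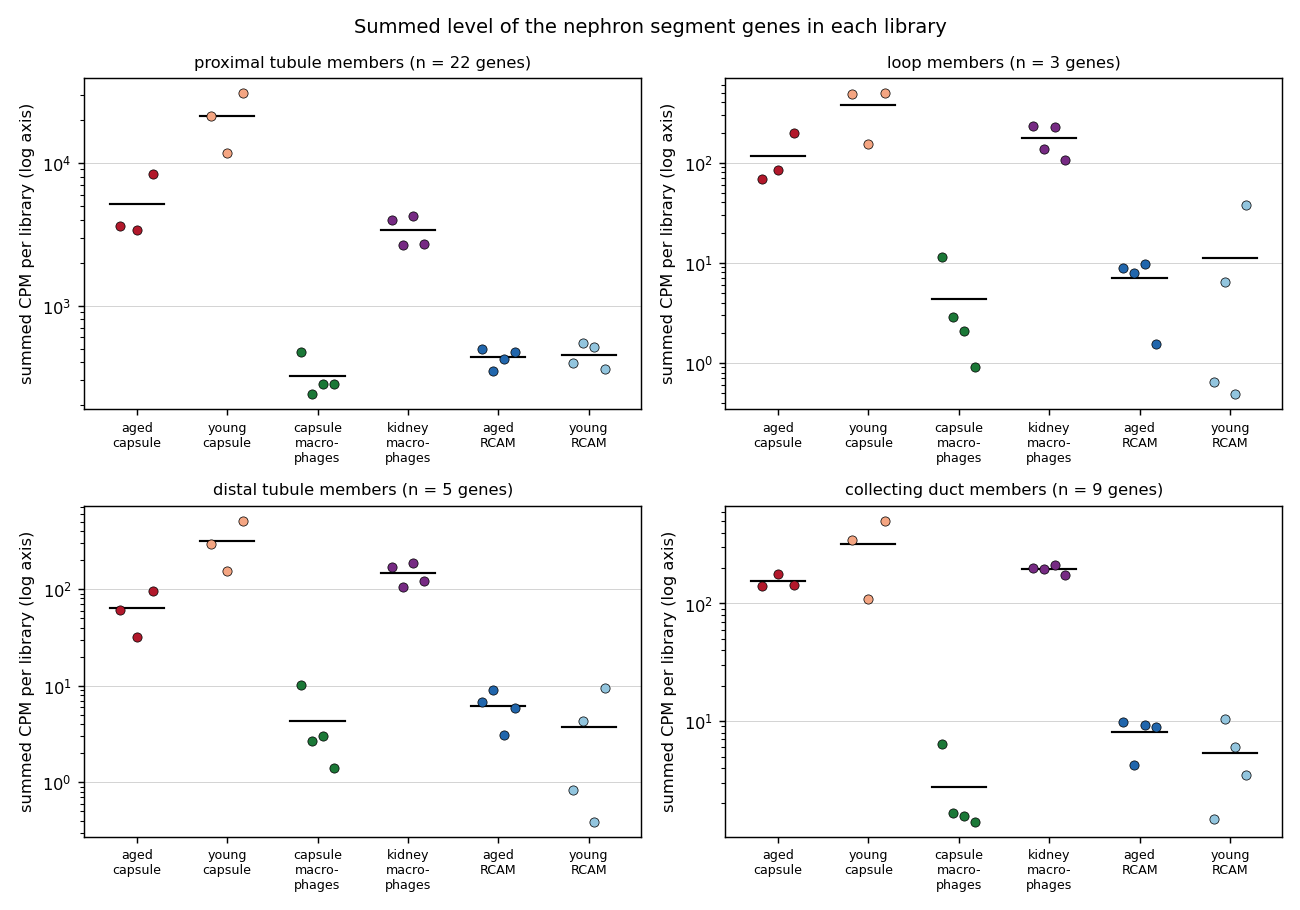
Summed CPM of the members of 4 nephron segments in each of the 22 libraries, on log axes, with 1 point per library and a bar at the group mean. The 3 aged capsule libraries lie between 3395 and 8431 CPM of proximal tubule members, below the 3 young ones at 11782 to 30711 CPM, and the capsule macrophage libraries lie at 240.4 to 477 CPM, below the kidney macrophage libraries at 2647 to 4215 CPM.

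Whether age changes the nephron content of capsule tissue was addressed by comparing aged with young capsule libraries. The proximal tubule members summed to 3611, 3395 and 8431 CPM in aged capsule, against 21437, 11782 and 30711 CPM in young capsule, and the groups did not overlap. Loop members summed to 68.4, 84.4 and 197 CPM in aged and 490.3, 155 and 491 CPM in young capsule, and here aged library 3 lay above young library 2. Distal tubule members, at 61, 31.9 and 96.7 CPM in aged and 292, 156 and 505 CPM in young capsule, did not overlap. The collecting duct sums overlapped, at 141, 178 and 144 CPM in aged and 348, 110.1 and 500.5 CPM in young capsule. Kcnj15 made 108, 155 and 98.6 CPM of these in aged and 236, 61.6 and 298 CPM in young capsule. In 5 of the 9 collecting duct members, each aged library lay below each young one. As means, the aged sums were 24.2%, 30.8%, 19.9% and 48.3% of the young sums for proximal tubule, loop, distal tubule and collecting duct, and the loop value was 20.2% without aged library 3. The libraries of 1 group differed in the same direction for most members: aged library 3 was the highest aged library for 32 of the 41 members and aged library 2 the lowest for 32, while young library 3 was the highest young library for 36 and young library 2 the lowest for 36. In bulk tissue, fewer cells of a type and less RNA per cell cannot be told apart.

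Gene by gene, 40 of the 41 members had enough counts to be tested and 1 passed. The test was edgeR's quasi-likelihood test over 16350 genes with Benjamini-Hochberg adjustment, called at an adjusted p under 0.05, and the log2 fold change is aged over young. Of the 40 members, 1 was lower in aged capsule and 0 were higher, where 0.0856% of all genes tested were called lower. The fold change was below 0 for 39 of the 40, with a median of -2.27 over the members, against 0.03 over all genes tested. At an unadjusted edgeR p under 0.05, 34 of the 40 were lower, where 11.7% of all genes were. In 22 of the 40, each aged library lay below each young one, as did 9.52% of all genes. The number of members called depended strongly on the settings. DESeq2 called 33 members lower, where it called 6.86% of all genes lower. With no filter on low counts edgeR called 32 (2.75% of all genes), and with both libraries numbered 2 left out, a setting chosen after their adipocyte and adrenal gene levels were seen, it called 27 (1.87%). Without young library 2 alone it called 18, and without young library 1, without young library 3 or without aged library 1 it called 0. The calls over all genes moved too, with 0 to 324 genes called lower over the 6 fits that left out 1 library.

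The member that passed was Car14, a membrane-bound carbonic anhydrase of the proximal tubule that helps reclaim bicarbonate (ENSMUSG00000038526, chromosome 3, 95897768 to 95904691 on the minus strand of GRCm38). It stood at 4.26, 2.97 and 8.6 CPM in aged capsule, against 37.4, 44.2 and 39.6 CPM in young capsule. The young libraries lay close together for this gene, unlike for most members, and the aged ones far below them. Young library 2, the lowest young library for 36 of the 41 members, was the highest for Car14. The log2 fold change was -3.05 ± 0.40 (SE, n = 3 each, edgeR adjusted p = 0.0447). The call was lost without young library 1 (adjusted p = 0.174), without young library 3 (0.0684), without aged library 1 (0.184) and with a filter at a mean of 1 CPM (0.0509), and the fold change stayed between -3.64 and -2.68 over 14 alternatives.

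Among the proximal transporters, Slc34a1, the sodium-phosphate cotransporter of the brush border, stood at 346, 132 and 488 CPM in aged capsule, against 1394, 518 and 2399.8 CPM in young capsule. Each aged library lay below each young one, and the log2 fold change of -2.26 ± 0.64 did not pass (edgeR adjusted p = 0.11). Slc4a4, the basolateral sodium-bicarbonate cotransporter, varied little among the aged libraries, at 123, 128 and 123 CPM in aged and 317, 219.8 and 375 CPM in young capsule. Its log2 fold change was -1.40 ± 0.24 (edgeR adjusted p = 0.0622), with no overlap. Slc22a12, the urate transporter URAT1, stood at 80.2, 44.3 and 151 CPM in aged and 609.8, 200.3 and 847 CPM in young capsule (log2 fold change -2.68 ± 0.61, edgeR adjusted p = 0.0875). Slc27a2, a very-long-chain fatty acid transporter and acyl-CoA synthetase, stood at 173, 113 and 372 CPM in aged and 1173, 452 and 1435 CPM in young capsule (-2.30 ± 0.57, edgeR adjusted p = 0.0929). These 4 transporters had aged libraries that all lay below the young ones without passing the test. The organic anion transporters Slc22a6 and Slc22a8, the glucose transporter Slc5a2, the lactate transporter Slc5a12, the sulfate transporter Slc13a1, the dicarboxylate transporter Slc13a3, the phosphate and urate transporter Slc17a3 and the cystine and acidic amino acid transporter Slc7a13 had fold changes of -2.50 to -1.42 and none passed.

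The endocytic receptors of the brush border, which recapture filtered proteins, had their lowest value in library 2 of each age. Lrp2 (megalin) stood at 116, 57.2 and 161 CPM in aged and 608, 167 and 793 CPM in young capsule, and its fold change of -2.33 ± 0.59 did not pass (edgeR adjusted p = 0.0971). Its partner Cubn (cubilin) stood at 29.9, 14.3 and 48.3 CPM in aged and 149, 39.7 and 159.9 CPM in young capsule, with aged library 3 above young library 2.

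Of the proximal enzymes, Pck1 (phosphoenolpyruvate carboxykinase, which starts gluconeogenesis and also makes glycerol for fat storage in adipocytes) stood apart. It was at 1245, 1786 and 1371 CPM in aged and 2757, 4405 and 2019.6 CPM in young capsule (log2 fold change -1.18 ± 0.37, edgeR adjusted p = 0.124). Unlike most members it was highest in the library numbered 2 of each age, as the white adipocyte sum was. That sum was 31456 to 62984 CPM in aged and 25519 to 53703 CPM in young capsule, with 6 of its 10 genes above 0 in fold change, and its part in the Pck1 level was not tested. The other gluconeogenic enzymes G6pc and Fbp1 had fold changes of -2.57 and -2.33, and the inositol oxygenase Miox had -2.09. Gatm, which makes the creatine precursor guanidinoacetate, stood at 97.9, 60.8 and 147 CPM in aged and 200.2, 77.2 and 396 CPM in young capsule, overlapping, with a fold change of -1.24 ± 0.56 (edgeR adjusted p = 0.239).

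Kap, the kidney androgen-regulated protein, had the highest level per kilobase of exon of any member in capsule tissue, at 3030 CPM per kb in aged and 16558 CPM per kb in young capsule. It stood at 925, 842 and 4659.8 CPM in aged and 11829, 4810.0 and 18479.7 CPM in young capsule. Aged library 3 almost reached young library 2 but the groups did not overlap, and the log2 fold change was -2.52 ± 0.81 (edgeR adjusted p = 0.131). Kap, Slc7a13 and the cytochrome P450 gene Cyp2j13 are known as male-biased in mouse kidney. The list of 8 male-biased kidney genes that holds these 3 had 8 of 8 fold changes below 0, with a median of -2.18. The labels give no sex. Xist was at 0 to 0.0694 CPM and the Y-linked Ddx3y at 30.9 to 114 CPM over the 22 libraries.

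In the loop of Henle, Egf (the epidermal growth factor precursor of the thick limb and distal tubule) stood at 16.8, 11.4 and 27.5 CPM in aged and 119, 35 and 104 CPM in young capsule. The groups did not overlap, and the log2 fold change was -2.30 ± 0.49 (edgeR adjusted p = 0.0826). Umod (uromodulin, the main protein of normal urine) stood at 42.8, 55.6 and 139 CPM in aged and 324, 108 and 326 CPM in young capsule (-1.75 ± 0.56, edgeR adjusted p = 0.131). Slc12a1 (the sodium-potassium-chloride cotransporter that loop diuretics block) stood at 8.74, 17.5 and 30.5 CPM in aged and 47.7, 12.2 and 61.7 CPM in young capsule (-1.18 ± 0.62, edgeR adjusted p = 0.303). Both of these overlapped between ages.

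The distal tubule genes had the lowest segment median, -2.81. Klk1 (tissue kallikrein of the connecting tubule) stood at 15.8, 9.07 and 32.3 CPM in aged and 133, 62.7 and 180.1 CPM in young capsule, and the fold change was -2.81 ± 0.54 (edgeR adjusted p = 0.0717). The calcium-binding proteins S100g and Calb1 gave -2.82 ± 0.63 (edgeR adjusted p = 0.0858) and -2.34 ± 0.67 (edgeR adjusted p = 0.111), and the aged libraries of both lay below the young ones. S100g stood at 7.12, 5.76 and 21.3 CPM in aged and 53.5, 41.8 and 131 CPM in young capsule. Slc12a3, the thiazide-sensitive salt transporter, stood at 28.9, 11.7 and 19.4 CPM in aged and 51, 25.9 and 86.8 CPM in young capsule. It overlapped, because aged library 1 was its highest aged library. Pvalb (parvalbumin of the early distal tubule) had few counts in the aged libraries, at 0 to 0.81 CPM in aged and 1.46 to 6.63 CPM in young capsule.

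Collecting duct genes were present at lower counts. In principal cells, Aqp3 (the basolateral water channel) stood at 3.12, 1.93 and 2.99 CPM in aged and 11, 4.37 and 18.7 CPM in young capsule (log2 fold change -2.20 ± 0.50, edgeR adjusted p = 0.0875, no overlap). Aqp2 (the vasopressin-regulated apical water channel) stood at 1.46, 3.77 and 9.34 CPM in aged and 4.32, 8.83 and 36.6 CPM in young capsule, overlapping (edgeR adjusted p = 0.262). Scnn1g, a subunit of the epithelial sodium channel, stood at 0.294 to 1.09 CPM in aged and 1.6 to 5.77 CPM in young capsule.

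In intercalated cells, which secrete acid or base, the anion exchangers Slc26a4 (pendrin) and Slc4a1 gave -2.39 ± 0.59 (edgeR adjusted p = 0.0945) and -1.91 ± 0.49 (edgeR adjusted p = 0.0978). Slc26a4 stood at 2.24, 0.83 and 1.73 CPM in aged and 7.92, 2.63 and 12.6 CPM in young capsule. Slc4a1 stood at 1.97, 2.6 and 4.06 CPM in aged and 7.04, 5.97 and 17.1 CPM in young capsule. It is also the anion exchanger of red cells, and the erythroid sum was 3077 to 9157 CPM in aged and 7066 to 26427 CPM in young capsule, with 8 of 8 tested genes below 0 in fold change. The part of red cells in the Slc4a1 values was not tested. The proton pump subunit Atp6v1g3 had a fold change of -2.43, the carbonic anhydrase Car12 -2.05 and the transcription factor Tfcp2l1 -1.73.

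Kcnj15, an inwardly rectifying potassium channel, made up most of each collecting duct sum in tissue. It stood at 108, 155 and 98.6 CPM in aged and 236, 61.6 and 298 CPM in young capsule, so that all 3 aged libraries lay above young library 2. Its fold change of -0.82 ± 0.50 was the nearest to 0 of the tubule members (edgeR adjusted p = 0.369).

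Of the podocyte members, Podxl alone could be tested, and its fold change was above 0. Podxl (podocalyxin, a sialoprotein of podocytes that endothelium also makes) stood at 147, 98.9 and 71.4 CPM in aged and 60.3, 69.4 and 75.7 CPM in young capsule. The groups overlapped, and the fold change was 0.49 ± 0.24 (edgeR adjusted p = 0.276). The sum of 10 endothelial genes ran in the same order among the aged libraries, at 1171, 819 and 639 CPM in aged and 623, 729 and 612 CPM in young capsule, with 9 of 10 genes above 0 in fold change, and its part in the Podxl level was not tested. Nphs1 (nephrin of the slit diaphragm) was at 0.134 to 0.185 CPM in aged and 0.135 to 0.291 CPM in young capsule, too low to be tested.

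Genes of the same segments outside the 41 went mostly in the same direction gene by gene, but not in every sum. As means, their aged sums were 44.3% of the young sums for proximal tubule and 40.1% for distal tubule genes. They were 85.8% for loop and 107% for collecting duct genes. Of 40 other proximal tubule genes tested, 0 passed by edgeR. At an unadjusted edgeR p under 0.05, 37 of them were lower, where 11.7% of all genes were. Their median log2 fold change was -2.13. Fold changes were below 0 for 10 of 12 other loop genes (median -1.48), 8 of 9 other distal tubule genes (median -1.22), 16 of 18 other collecting duct genes (median -1.56) and 9 of 9 general renal epithelial genes (median -1.77), and none of these passed. Atp6v0d2, a proton pump subunit that some macrophages also express, went the other way without passing, at 87.3, 5.76 and 139 CPM in aged and 4.86, 2.91 and 8.56 CPM in young capsule (log2 fold change 3.72 ± 0.99, edgeR adjusted p = 0.102). The macrophage sum was 6451, 4779 and 11266 CPM in aged and 3458, 2301 and 4564 CPM in young capsule, with 13 of 14 tested genes above 0 in fold change. The brown adipocyte sum was 276 to 416 CPM in aged and 806 to 3236 CPM in young capsule, with 7 of 8 genes below 0 in fold change and 1 called lower, and the urothelial sum was 24.8 ± 3.82 CPM (SD) in aged and 93.6 ± 74.3 CPM in young capsule (n = 3 each), with 8 of 8 below 0. The part of these other tissues in the nephron values was not tested.

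**Figure D2:**
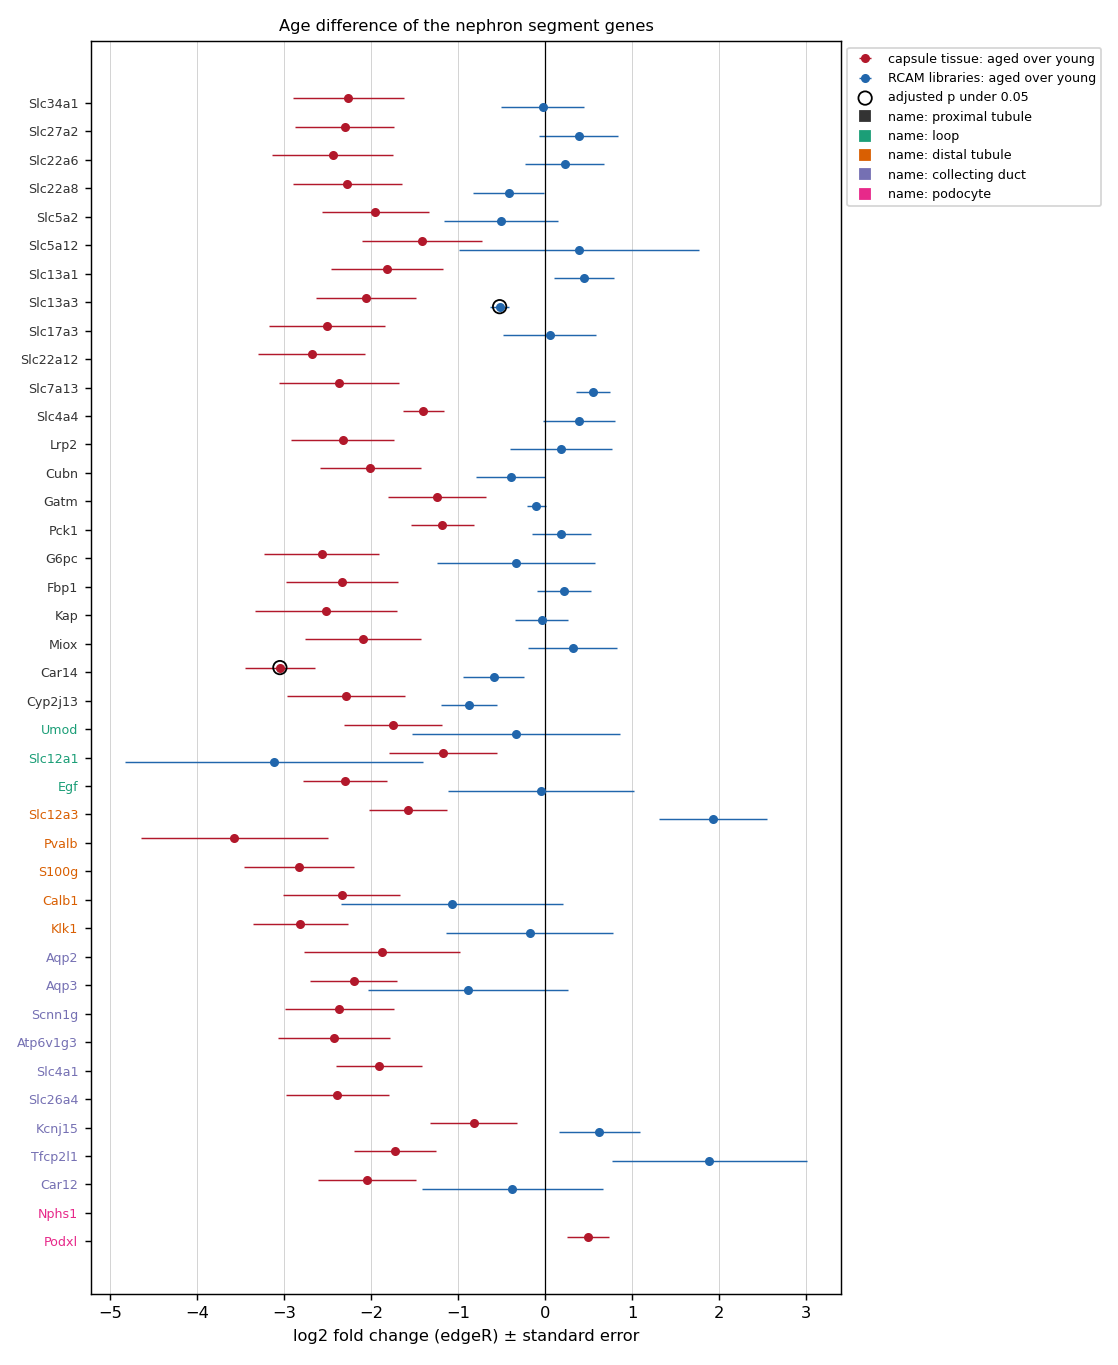
Log2 fold change (edgeR) of each member, aged over young, with its standard error as a bar, in capsule tissue (red, n = 3 each) and in RCAM libraries (blue, n = 4 each); a ring marks an adjusted p under 0.05, names are coloured by segment, and members that could not be tested have no point. Of the 40 members tested in tissue, 39 lie below 0 and only Car14 is ringed, while the 31 tested in RCAM libraries lie on both sides of 0 and only Slc13a3 is ringed.

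The second question was how much nephron RNA macrophage libraries carry, and the capsule macrophages were set against the kidney macrophages. Proximal tubule members summed to 477, 240.4, 282 and 284 CPM in capsule macrophages, against 3968, 2647, 4215 and 2717 CPM in kidney macrophages. The loop sums were 11.4, 2.86, 2.09 and 0.916 CPM in capsule macrophages and 232, 138, 228 and 107 CPM in kidney macrophages. Collecting duct members summed to 6.4, 1.65, 1.55 and 1.4 CPM in capsule macrophages and 199, 196, 211 and 176 CPM in kidney macrophages. No segment of the tubule overlapped. As means, the capsule macrophage sums were 9.47% of the kidney macrophage sums for the proximal tubule, 2.44% for the loop, 2.98% for the distal tubule and 1.41% for the collecting duct. Without capsule macrophage library 1 these were 1.11% for the loop, 1.62% for the distal tubule and 0.785% for the collecting duct. Gatm made 221, 133, 177 and 197 CPM of the capsule macrophage proximal sums, and Slc13a3 made 64.4, 62.9, 55.6 and 50 CPM. Both departed from the other members, as given below, and together made most of each sum. The 9.47% is thus not a like measure to the values of the other segments.

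Of 39 members tested among 15701 genes, 35 were lower in capsule macrophages, where 28.2% of all genes tested were called lower, and 1 was higher, where 27.3% of all genes were called higher. The median log2 fold change of the members was -5.12, against -0.03 over all genes, and in each of the 35 every capsule library lay below every kidney library, as was so for 35.1% of all genes tested. By segment the median was -4.84 in the proximal tubule, -5.23 in the loop, -4.64 in the distal tubule and -6.44 in the collecting duct. Capsule macrophage library 1 was the highest of its group for 31 of the 39 members with a count. Without it 35 members were still called lower, and the median was -6.59. With no scaling between libraries the median of all genes was -0.24, and the split of all calls was 3101 higher and 5742 lower, against 4281 higher and 4420 lower with TMM scaling.

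The fold changes furthest from 0 were those of Slc4a1, Car12 and Kcnj15 of the collecting duct, followed by Slc5a12 of the proximal tubule. Car12 stood at 0.0936, 0.0247, 0.0646 and 0.0763 CPM in capsule macrophages, against 22.3, 19.6, 23.8 and 14.3 CPM in kidney macrophages (log2 fold change -7.96 ± 0.31, edgeR adjusted p = 2.03e-08). Slc4a1 had no count in 3 capsule macrophage libraries and 0.0254 CPM in the fourth, against 4.36, 5.8, 5.18 and 4.25 CPM in kidney macrophages. Its fitted log2 fold change of -9.00 ± 0.60 (edgeR adjusted p = 7.86e-07) depends on the small number added to zero counts. The erythroid sum ran the other way, at 150.2 to 318 CPM in capsule macrophages, against 23.3 to 35.5 CPM in kidney macrophages. Its tested genes were called higher in 4 of 4, where 27.3% of all genes were. Kcnj15 stood at 0.262, 0, 0.237 and 0 CPM in capsule macrophages and 46.7, 28.3, 43.8 and 28.9 CPM in kidney macrophages (-7.83 ± 0.55, edgeR adjusted p = 1.11e-06). The lactate transporter Slc5a12 stood at 0.131, 0, 0.0215 and 0.0509 CPM in capsule macrophages and 11.4, 10.7, 15.2 and 6.82 CPM in kidney macrophages (-7.37 ± 0.56, edgeR adjusted p = 2.16e-06). Scnn1g, also of the collecting duct, stayed within 0.0187 to 0.0509 CPM in capsule macrophages, against 4.14 to 5.27 CPM in kidney macrophages (-6.82 ± 0.40, edgeR adjusted p = 3.38e-07). For all of these the capsule libraries were at or near the counting limit.

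The water channels were even among kidney macrophage libraries. Aqp2 stood at 3, 0.222, 0.194 and 0.178 CPM in capsule macrophages and 56.7, 70.1, 64.6 and 68.7 CPM in kidney macrophages (log2 fold change -5.87 ± 0.73, edgeR adjusted p = 6.73e-05). Aqp3 stood at 1.87, 1.23, 1.03 and 0.381 CPM in capsule macrophages and 20.5, 22.1, 22.9 and 21.5 CPM in kidney macrophages (-4.04 ± 0.36, edgeR adjusted p = 6.98e-06). Slc26a4 had 0 to 0.687 CPM in capsule macrophages, and its kidney values were likewise even, at 12.4 to 15.5 CPM.

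In kidney macrophages, many proximal and loop members had a split pattern instead, with libraries 1 and 3 high and libraries 2 and 4 low. Slc34a1 stood at 37.3, 6.46, 5.47 and 3.41 CPM in capsule macrophages and 546, 387, 577 and 392 CPM in kidney macrophages (-4.94 ± 0.71, edgeR adjusted p = 0.000182). Egf stood at 3.26, 1.75, 2.07 and 0.763 CPM in capsule macrophages and 74.2, 45.4, 77.9 and 31.7 CPM in kidney macrophages (-4.62 ± 0.41, edgeR adjusted p = 6.53e-06). Slc12a1 had 3.56 and 0.32 CPM and then no count in capsule macrophage libraries 1 to 4, and 73.6, 43.6, 67 and 36.6 CPM in kidney macrophages. Over the 4 kidney macrophage libraries, library 3 was highest for 23 members and library 1 for 11, while library 4 was lowest for 19 and library 2 for 15.

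The distal tubule members were lower as well. Calb1 stood at 1.33, 0.247, 0.108 and 0.483 CPM in capsule macrophages and 42, 33.7, 51.4 and 30.1 CPM in kidney macrophages (-5.90 ± 0.54, edgeR adjusted p = 7.52e-06). Klk1 stood at 4.18, 1.45, 0.947 and 0.229 CPM in capsule macrophages and 107, 53.3, 111 and 69.6 CPM in kidney macrophages (-5.37 ± 0.60, edgeR adjusted p = 3.2e-05). Slc12a3 had the smallest distal fold change, -3.02 ± 0.49 (edgeR adjusted p = 0.000406), at 0.661 to 4.42 CPM in capsule macrophages, against 17.3 to 20.6 CPM in kidney macrophages.

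A few proximal members departed from the rest. Gatm was high in both groups, at 221, 133, 177 and 197 CPM in capsule macrophages and 793, 729, 797 and 732 CPM in kidney macrophages (-1.86 ± 0.14, edgeR adjusted p = 1.77e-06), and its kidney values were even. Slc7a13 stood at 8.02, 6.98, 7.08 and 5.06 CPM in capsule macrophages and 30.3, 18.4, 36.7 and 18.7 CPM in kidney macrophages (-1.72 ± 0.23, edgeR adjusted p = 0.000134). Cubn was nearly level, at 3.61, 3.35, 2.28 and 3.38 CPM in capsule macrophages and 3.9, 3.43, 3.42 and 3.41 CPM in kidney macrophages (0.05 ± 0.23, edgeR adjusted p = 0.872), whereas its partner Lrp2 was lower at -4.74 ± 0.78 (edgeR adjusted p = 0.00048).

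Slc13a3 was the member called higher, by a small amount. It stood at 64.4, 62.9, 55.6 and 50 CPM in capsule macrophages and 60.4, 57.2, 59.5 and 48.8 CPM in kidney macrophages, so the groups overlapped. The log2 fold change was 0.26 ± 0.10 (edgeR adjusted p = 0.0464). The call was lost with DESeq2 size factors (adjusted p = 0.0528), with no filter (0.0803) and with no scaling (0.741, log2 fold change 0.05). It was also lost on leaving out any 1 of the 4 kidney macrophage libraries or capsule macrophage library 1 or 2 (0.0714 to 0.134).

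The podocyte members rested on 1 library. Podxl stood at 0.468, 31.3, 1.14 and 0.102 CPM in capsule macrophages and 4.75, 3.48, 5.78 and 1.26 CPM in kidney macrophages (1.34 ± 1.28, edgeR adjusted p = 0.399). Capsule macrophage library 2 was the high one, and Nphs1 was 0.296 CPM there and 0.112 to 0.129 CPM in the other 3. The endothelial sum was also highest there, at 56.9 CPM against 23.0 to 33.1 CPM. The part of either in the Podxl value was not tested.

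**Figure D3:**
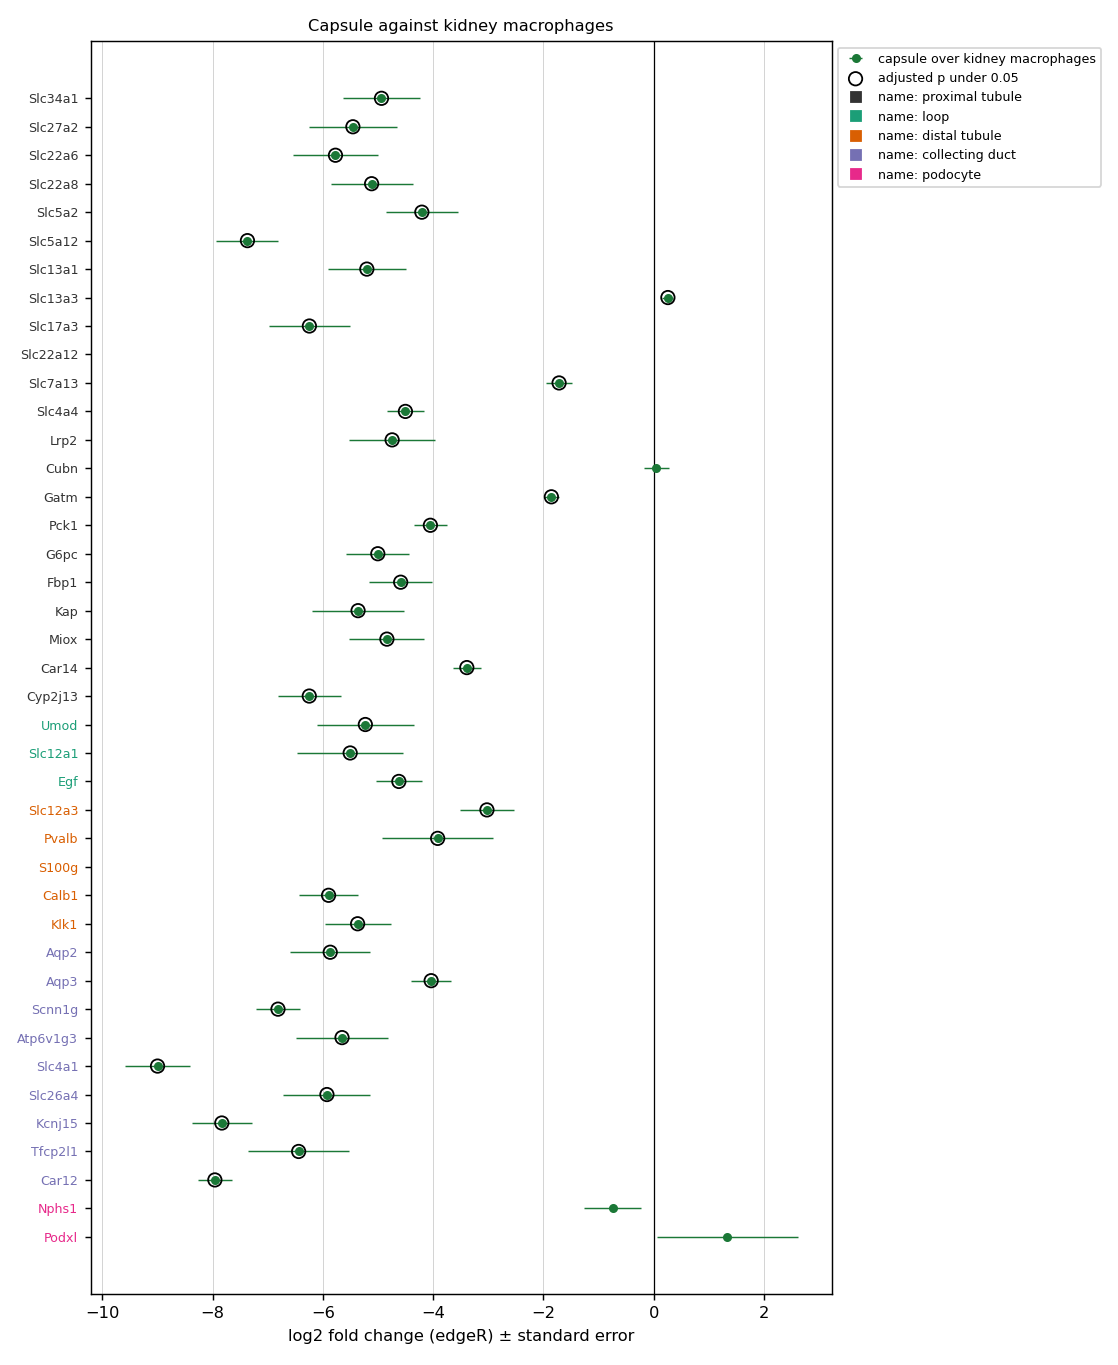
Log2 fold change (edgeR) of each member, capsule over kidney macrophages (n = 4 each), with its standard error as a bar, a ring at an adjusted p under 0.05, and names coloured by segment. Slc22a12 and S100g have no point because they had no count, 35 of the 39 points are ringed below 0, and Slc13a3, at 0.26, is ringed above 0.

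Outside the 41, the other genes of the segments were mostly lower in capsule macrophages too: 35 of 38 other proximal tubule genes, 12 of 13 other loop genes, 5 of 7 other distal tubule genes, 12 of 13 other collecting duct genes and 9 of 9 general renal epithelial genes passed as lower by edgeR. Over all genes tested, 28.2% were called lower and 27.3% higher. Slc7a8, a neutral amino acid transporter, was 1 of 2 other proximal tubule genes called higher, at 1.06 ± 0.07 (edgeR adjusted p = 1.05e-06). Atp6v0d2 was higher at 15.2, 17, 14 and 13.8 CPM in capsule macrophages, against 6.33, 3.87, 6.78 and 4.69 CPM in kidney macrophages (1.69, edgeR adjusted p = 3.21e-05). Foxi1, the defining transcription factor of intercalated cells, had no count in any of the 4 capsule macrophage libraries and 2.64 to 4.42 CPM in kidney macrophages.

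Set against capsule tissue, the kidney macrophage libraries held different proportions of the segments. Slc22a12 and S100g, listed at 0 in every macrophage and RCAM library, were left out of these shares for the reason given with their values. Over the other 39 members, the median level was 1.98% of that in the 6 tissue libraries in capsule macrophages, and 66.6% in kidney macrophages. Without capsule macrophage library 1 the capsule macrophage median was 0.715%. The segment medians in kidney macrophages were 46.7% for the proximal tubule, 110% for the loop, 96.6% for the distal tubule and 184% for the collecting duct. These shares depend on their base, which pools aged and young capsule, while no age was given for these macrophages. Mean Slc34a1, as an example, was 475 CPM in kidney macrophages, above the 322 CPM of aged capsule and below the 1437 CPM of young capsule. Collecting duct members made 5.97 CPM per 100 CPM of proximal tubule members in kidney macrophages, against 0.768 in capsule macrophages, 3.62 in aged capsule and 1.40 in young capsule. Slc22a12 was kept in these sums. The proximal sums were mostly Kap and Pck1 in capsule tissue but mostly Gatm and Slc13a3 in capsule macrophages. These ratios of sums therefore do not set like parts of the segments against each other. Aqp2 made 14.3 CPM per 100 CPM of Slc34a1 in kidney macrophages (10.4 to 18.1 over 4 libraries), against 5.06 in capsule macrophages, 1.73 in aged capsule and 1.18 in young capsule.

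Members departed from these medians in both directions, as the plot of shares shows. Levels of Umod, Slc13a3, Slc27a2, Cubn and Car14 carry a limit here, because 46.6%, 34.9%, 32.7%, 23.8% and 17.5% of their exon bases lie under a gene of the opposite strand. So do those of Slc5a2 (20.6%) and of Slc34a1 (11.7%), the base of the Aqp2 ratio above. A share over 4 times the median was found in kidney macrophages for Aqp2 (606%), Gatm (467%), Aqp3 (310%) and Slc26a4 (294%). Below the median by more than 4 times were Lrp2 (12.8%), Pck1 (11.4%), Kap (8.26%), Cubn (4.81%) and Podxl (4.38%).

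In capsule macrophages the high shares were 111% for Gatm, 91.0% for Nphs1, 48.2% for Slc13a3, 16.1% for Aqp3, 9.49% for Podxl and 8.37% for Aqp2. The Nphs1 share sets 5 to 12 counts per macrophage library against 3 to 7 per tissue library, near the counting limit, and is not read as a level. The Podxl share was 0.655% without library 2, and the Aqp2 share 1.84% without library 1. The 8 low shares ran from 0.0781% for Kcnj15 to 0.402% for Cyp2j13, and among them Slc5a12, Slc17a3, Lrp2, Kap and Kcnj15 were lower still by over 1.5 times without library 1.

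In RCAM libraries, set against tissue of the same age, Gatm reached 204% in aged and 97.9% in young, and Slc13a3 104% in aged and 37.5% in young. These shares do not compare RCAM levels between ages, because the tissue levels under them were lower in aged capsule. Mean Slc13a3 was 51.3 CPM in aged and 72.2 CPM in young RCAM, against 49.2 CPM in aged and 192 CPM in young capsule. Gatm stood at 199 to 214 CPM in aged and 190 to 280 CPM in young RCAM. Pvalb was also high in aged RCAM (41.6%, and 10.7% without library 2), as were Slc12a1 (10.3%, and 1.40% without library 4) and Nphs1 (13.8%, and 6.46% without library 1) in young RCAM. Nphs1 had only 0 to 4 counts per young RCAM library. Low in both were Lrp2 (2.40% in aged and 0.447% in young), Pck1 (1.26% in aged and 0.527% in young), Kap (0.537% in aged and 0.0999% in young) and Podxl (1.90% in aged and 0.0912% in young), of which aged Podxl was 0.441% without library 3. Slc26a4 had no count in either age and Scnn1g none in young.

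**Figure D4:**
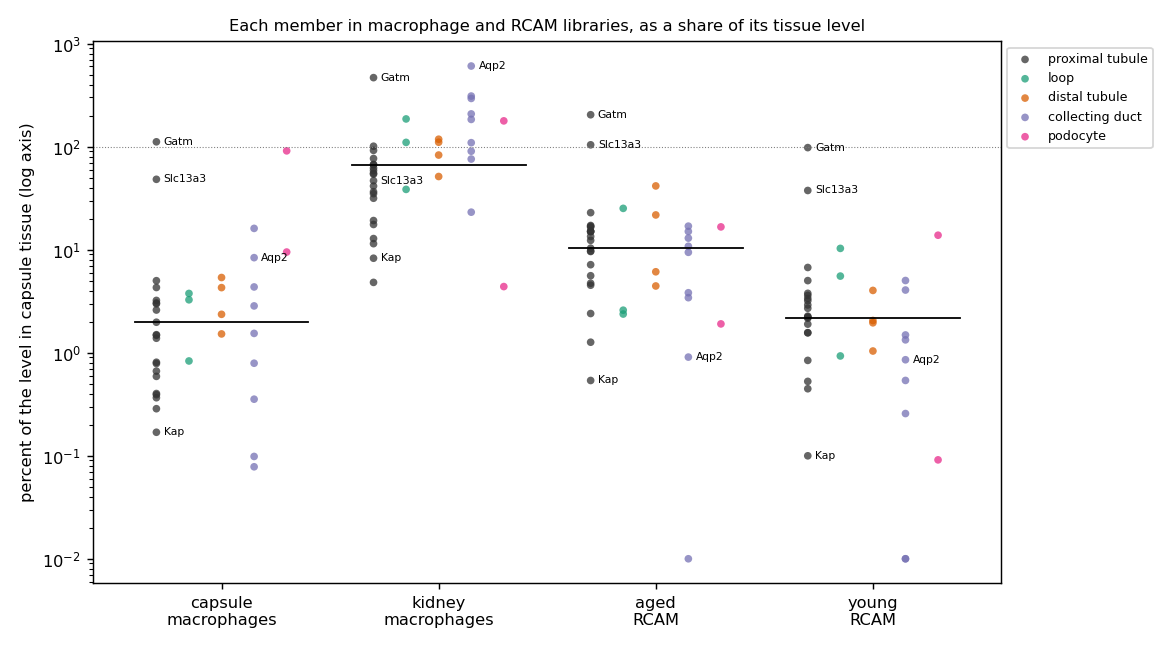
Mean level of each member in the macrophage and RCAM groups as a percent of its mean in capsule tissue, on a log axis, with 1 point for each of 39 members coloured by segment and a line at the group's median. Capsule and kidney macrophages are set against all 6 tissue libraries, both ages pooled, and RCAM groups against tissue of their own age. Members with no count are drawn at 0.01%. The medians are 1.98%, 66.6%, 10.3% and 2.16% in capsule macrophages, kidney macrophages, aged RCAM and young RCAM, and Gatm lies near or above 100% in all 4. The tissue levels under the aged and young RCAM shares differ, so these shares do not compare RCAM levels between ages.

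A pair of members was listed at 0 in every macrophage and RCAM library. Slc22a12 and S100g had no count in any of the 16 macrophage and RCAM libraries, although they reached 847 and 131 CPM in young capsule. Slc22a12 (chromosome 19, 6535845 to 6543032, minus strand) lies wholly within Nrxn2 on the plus strand, and S100g (chromosome X, 162961992 to 162964599, minus strand) wholly within Ctps2 on the plus strand. Over the whole series, 233 of 10414 genes with at least 5 CPM in every tissue library had no count in any of the 16. Of these, 232 were in the annotation, and 228 of them (98.3%) had their exons wholly under a gene of the opposite strand, against 45 of 10178 other genes (0.442%). The 0 values of Slc22a12 and S100g are therefore not read as levels. The labels name a stranded kit and an unstranded low-input kit without saying which library had which, and whether counting used strand is not given in the sources used here. Other members lie partly under an opposite-strand gene, by 46.6% of exon bases for Umod, 34.9% for Slc13a3, 32.7% for Slc27a2 and 23.8% for Cubn. The share is 20.6% for Slc5a2, 17.5% for Car14 and 11.7% for Slc34a1. This limits any comparison of the levels of these members between tissue and macrophage libraries.

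In RCAM libraries, 27 of the 31 members with enough counts overlapped between aged and young. The 4 that did not are 12.9% of the 31, near the 11.5% of all genes tested. The proximal tubule sums were 494, 347, 424 and 476 CPM in aged and 395, 551, 509 and 358 CPM in young RCAM, overlapping, with the aged mean at 96.1% of the young mean. Gatm alone made 199, 214, 205 and 212 CPM of these in aged and 214, 195, 280 and 190 CPM in young RCAM. The loop sums were 8.92, 7.86, 9.81 and 1.55 CPM in aged and 0.643, 6.36, 0.489 and 37.6 CPM in young RCAM. Distal tubule sums were 6.8, 8.98, 3.11 and 5.9 CPM in aged and 0.827, 4.27, 0.391 and 9.37 CPM in young RCAM. Young library 4 thus held the highest loop and distal values of all 8 and young library 3 the lowest. Of 31 members with enough counts among 15182 genes, 1 was called lower in aged RCAM, where 1.38% of all genes were, and 0 were called higher, where 3.43% of all genes were. At an unadjusted edgeR p under 0.05, 2 were higher, where 10.1% of all genes were, and 2 lower, where 7.33% were. DESeq2 called 1 member higher, Slc12a3, where it called 6.17% of all genes higher. The median log2 fold change was -0.04 over the members.

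Slc13a3, the sodium-dependent dicarboxylate transporter NaDC3 (ENSMUSG00000018459, chromosome 2, 165405028 to 165473230, minus strand), was the member called. It stood at 48.1, 46, 54.5 and 56.6 CPM in aged RCAM, against 81.6, 72.7, 65.8 and 68.8 CPM in young RCAM, with no overlap. The log2 fold change was -0.52 ± 0.11 (n = 4 each, edgeR adjusted p = 0.0232). The call was lost without young library 2 (0.0562), without aged library 1 (0.0645) and without aged library 2 (0.0592), at fold changes of -0.52 to -0.48. Over all 16 macrophage and RCAM libraries this gene ranged from 46.0 to 81.6 CPM, 1.77 times from lowest to highest, the narrowest range of the members with a count in each, while Gatm ranged 6.01 times and Slc34a1 169 times.

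The other 3 members with an unadjusted p under 0.05 in RCAM did not pass. Slc12a3 stood at 5.41, 6.29, 2.07 and 3.62 CPM in aged and 0.643, 1.3, 0.215 and 2.32 CPM in young RCAM (log2 fold change 1.93 ± 0.62, edgeR adjusted p = 0.123). Slc7a13 stood at 8.34, 6.14, 9.76 and 6.16 CPM in aged and 5.46, 4.77, 4.89 and 5.29 CPM in young RCAM, with no overlap (0.55 ± 0.19, edgeR adjusted p = 0.161). Cyp2j13 stood at 0.867 to 1.28 CPM in aged and 1.12 to 2.59 CPM in young RCAM (-0.87 ± 0.32, edgeR adjusted p = 0.183). Car14 was near 1 CPM, at 0.813, 0.83, 0.823 and 0.697 CPM in aged and 1.01, 1.77, 0.88 and 1.04 CPM in young RCAM (-0.59 ± 0.35, edgeR adjusted p = 0.445). Slc12a1 had the largest fold change, -3.12 ± 1.71 (edgeR adjusted p = 0.405), which rested on 15 CPM in young library 4. Slc26a4 had no count in any of the 8 RCAM libraries.

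Of the other segment genes in RCAM libraries, 0 of 34 proximal tubule genes passed. Cldn10, a paracellular channel protein of the loop, was lower at 1.49 to 2.72 CPM in aged and 4.93 to 6.10 CPM in young RCAM (-1.30 ± 0.23, edgeR adjusted p = 0.0124). Atp6v0d2 was higher at 42.1, 52.7, 37.6 and 50.5 CPM in aged and 19.7, 19.3, 18.2 and 16 CPM in young RCAM (1.30 ± 0.13, edgeR adjusted p = 0.00109). The chloride channel subunit gene Bsnd was at 0.513, 1.04, 0.423 and 0.588 CPM in aged RCAM with no count in the 4 young libraries (edgeR adjusted p = 0.00574). Fold changes of all 7 general renal epithelial genes tested were above 0. Of these, 1, the protease inhibitor Spint2, passed (1.02 ± 0.25, edgeR adjusted p = 0.0447), where 3.43% of all genes were called higher.

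**Figure D5:**
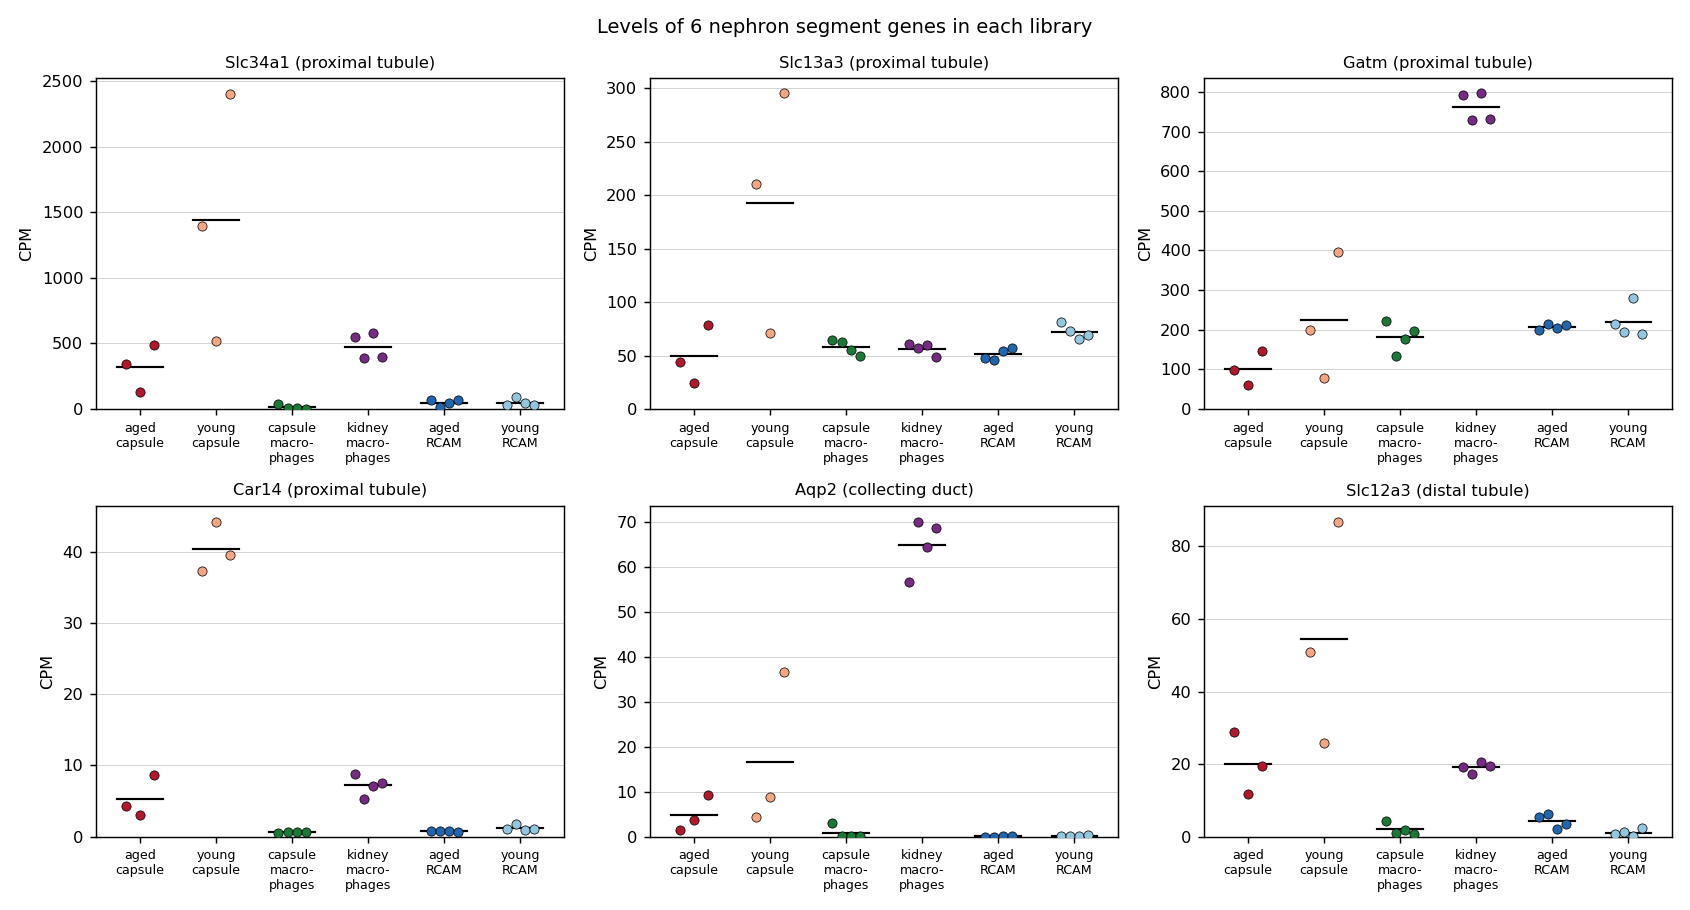
CPM of 6 members in each of the 22 libraries, on linear axes from 0, with 1 point per library and a bar at the group mean. Car14 lies at 37.4 to 44.2 CPM in young capsule and at 8.82 CPM or below elsewhere, Gatm and Aqp2 are highest in kidney macrophages, and Slc13a3 keeps between 46.0 and 81.6 CPM in all macrophage and RCAM libraries.

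Whether the age difference itself differed between RCAM libraries and capsule tissue was tested as an interaction over 18856 genes, where a positive value means that aged over young was higher in RCAM than in tissue. Of 40 members tested, 3 were called higher, where 3.12% of all genes were, and 0 were called lower. These were Car14 (2.49 ± 0.49, edgeR adjusted p = 0.0202), Slc7a13 (2.96 ± 0.70, edgeR adjusted p = 0.0334) and Slc12a3 (3.55 ± 0.86, edgeR adjusted p = 0.0357). Slc7a13 stood at 30.7, 19.6 and 87.4 CPM in aged and 315, 75.2 and 286 CPM in young capsule, the opposite order to its RCAM values above. The difference was above 0 for 39 of the 40 members, Slc12a1 being the exception, and 23 were above 0 with an unadjusted edgeR p under 0.05, where 13.2% of all genes were. Both the 40 and the 39 include Slc22a12, S100g and Slc26a4, for which the difference has no meaning, because they had no count in RCAM. Tissue and RCAM libraries may differ in kit, so kit and sample type cannot be told apart in the levels.

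The promoters of the members were searched for the sites of HNF4, a transcription factor family that drives proximal tubule genes. The RefSeq tables for GRCm38.p6 held 34 of the 41 members, as windows of 300 bases from 250 before to 50 after the start of transcription, and both strands were read. The letters CAAAGTCCA or CAAAGTTCA were found in 0 of the 34, against 0.995% of 27025 genes and 4 of 32 other proximal tubule genes (12.5%). The window of Car14, the member that fell in aged capsule, is shown in lower case, at chr3:95904636-95904935 on the minus strand.
Car14: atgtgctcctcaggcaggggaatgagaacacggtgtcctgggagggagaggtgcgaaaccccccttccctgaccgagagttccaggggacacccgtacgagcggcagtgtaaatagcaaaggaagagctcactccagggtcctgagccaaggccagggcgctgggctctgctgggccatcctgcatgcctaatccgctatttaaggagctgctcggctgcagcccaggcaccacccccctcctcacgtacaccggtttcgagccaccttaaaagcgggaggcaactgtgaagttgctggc
The absence of these letters says only that they are not in this window. The gluconeogenic enzyme G6pc stood at 24.3, 10.4 and 38.2 CPM in aged and 116, 43.9 and 243 CPM in young capsule, and its fold change of -2.57 ± 0.66 did not pass (edgeR adjusted p = 0.0977).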

How the data were processed

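Raw read counts per gene and RPKM values were deposited for each of 22 libraries in separate tables, per the file headers. Single-end 50-base reads were sequenced, per the labels' protocols, and GRCm38 was named in the submitters' processing notes. For the aligner, the counter and its use of strand, the sources used here name nothing. The deposited RPKM column was not tested. Counts were analysed with edgeR 4.0.16 (R 4.3.3): TMM scaling, filterByExpr, quasi-likelihood F tests, 2-sided, Benjamini-Hochberg over all genes tested, threshold 0.05, with only the groups compared in each fit and all 4 groups in the interaction. CPM uses unscaled library totals, with limits that cover counting error only. DESeq2 1.42.0, limma 3.58.1, other scalings and filters, a replicate block and leaving out each library were alternatives. The procedure was tested on simulated data. Members and lists were chosen with earlier results of these data known. Full values were given for called members of largest fold change and up to 4 members of smallest p per segment and comparison, and up to 4 genes for other lists. Opposite-strand overlaps came from GENCODE M21, which held 52489 of the 52636 genes.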

Additional observations from a re-analysis of the deposited data

Results flagged for a closer look

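Within groups of 4 libraries, 69 sets of values were searched for 1 library far from the other 3, and 11 stood out by Dixon's test of the gap at the 95% level, where chance gives about 1 in 20.

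In the RCAM libraries, young library 4 held 37.6 CPM of loop members against 0.489 to 6.36 CPM in the other young libraries, and its Egf was 15.5 CPM against 0.489 to 2.49 CPM. Aged library 2 had the low collecting duct sum, 4.23 CPM against 8.97 to 9.81 CPM. Aged library 3 had 6.70 CPM of podocyte members against 0.235 to 0.936 CPM, of which Podxl made 6.65 CPM against 0.192 to 0.936 CPM, and 1.42 CPM of Slc4a1 against 0 to 0.0653 CPM. Aged library 4 had 3.38 CPM of Tfcp2l1 against 1.43 to 1.73 CPM.

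Among capsule macrophages, library 1 had 6.40 CPM of collecting duct members against 1.40 to 1.65 CPM. Library 2 had 31.6 CPM of podocyte members against 0.229 to 1.27 CPM, of which Podxl made 31.3 CPM against 0.102 to 1.14 CPM. Among kidney macrophages, library 4 had 12.5 CPM of Tfcp2l1 against 24.1 to 25.6 CPM.

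The age difference was higher in RCAM than in capsule tissue, by edgeR's interaction test, for Slc12a3 by 3.55, for Car14 by 2.49 and for Slc7a13 by 2.96 on the log2 scale.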

How the results depend on the processing

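In capsule tissue, the count of members called lower, 1, was 32 with no filter, 0 with a filter at a mean of 1 CPM, 33 by DESeq2, 37 with the replicate number as a block and 27 without both libraries numbered 2. Leaving out 1 library gave 0 to 18 lower and 0 to 0 higher, and over all genes 0 to 324 lower and 0 to 93 higher. Over all genes, DESeq2 called 754 higher and 1122 lower and the block 943 and 1253, against 25 and 14. Fold changes kept their direction: 39 of 40 members were below 0 on leaving out each library, with medians of -2.73 to -1.61. The labels do not say that replicate numbers mark shared animals or days. Same-numbered capsule libraries deviated together (r = 0.0986 to 0.353, against -0.306 to 0.0382 for unequal numbers), and each correlated best with its own number, a hint from the data and not the design. Numbers did not pair macrophages (r = -0.0478 to 0.0357) or RCAM libraries (r = -0.108 to -0.0261).

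In macrophages, members called higher, 1, were 0 with DESeq2 size factors, 0 with no scaling and 0 with no filter, and 0 to 1 on leaving out a library; members called lower were 35 to 36. In RCAM libraries, members called higher, 0, were 1 with the strict filter (Podxl) and 1 by DESeq2 (Slc12a3), and 0 to 1 on leaving out a library. Members called lower, 1, were 0 under the block (Slc13a3 adjusted p = 0.102) and 0 to 1 on leaving out a library. The interaction called 11 members higher under the block, against 3, and no library was left out there. The causes were not tested. No scaling shifted the median of all genes by 0.12 in capsule tissue and by -0.21 in macrophages. Of 30 mean segment sums recomputed with TMM totals, 29 moved by less than 1 SD. The podocyte sum in young capsule moved by more, to 59.5 CPM against 68.7 CPM. Leaving out 1 library cannot move a group's mean by its SD, so that limit says nothing about single libraries. On leaving out each library, the mean loop sum in young RCAM ran from 2.50 to 14.9 CPM. Members under 1 CPM rest on few counts.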
